A study of Rattus norvegicus with 18 samples.

Results

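Respiratory complex I takes electrons from NADH, passes them to ubiquinone and pumps protons out of the mitochondrial matrix. Its membrane arm holds core subunits that are encoded in mitochondrial DNA by the ND genes, while its other subunits are encoded in the nucleus. In mammals the ND genes are read from both strands of mitochondrial DNA as long transcripts that are then cut into separate RNAs, and Nd6 is the only protein gene read from the light strand. In beta cells, ATP made by the respiratory chain from glucose closes potassium channels and so starts insulin secretion.

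The genes described here are the mitochondrially encoded complex I subunits, a set of 7 genes chosen by name (Nd1, Nd2, Nd3, Nd4, Nd4l, Nd5 and Nd6). In the table they stand under Ensembl IDs, ENSRNOG00000030644 for Nd1, ENSRNOG00000031033 for Nd2, ENSRNOG00000033615 for Nd3, ENSRNOG00000031053 for Nd4l, ENSRNOG00000029971 for Nd5 and ENSRNOG00000029042 for Nd6. Of the 7, 6 were analysed among the 27654 genes of the count table, and all 6 passed the filter on low counts that kept 14920 genes. Nd4 was not analysed here. RNA came from sorted rat islet cells, which the series text calls replicating and quiescent beta cells and the sample labels call pancreatic islets. There were 4 old replicative, 4 old quiescent, 5 young replicative and 5 young quiescent libraries. They came from 9 islet preparations, each pooled from 2 rats and split into a replicating and a quiescent sample. All islets had spent a night in RPMI1640 medium containing 10% FBS and 11.1 mM glucose, and all had received EdU, a thymidine analogue that marks cells copying their DNA, at 10 micromolar. The labels used here give age as old or young only, and name no strain, sex or sorting gate. Because old and young islets came from different batches, age and batch cannot be told apart. The p-values measure the spread between pools of rats, not between single animals.

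Total counts ran from 2975086 to 8639541 in old replicative, 4639863 to 10365264 in old quiescent, 5439091 to 8242896 in young replicative and 2723660 to 14222719 in young quiescent libraries. Old replicative replicate 3 was the shallowest of its group. Levels are given as CPM, counts scaled to a common TMM-adjusted library size, which corrects for depth and for the make-up of the library. Reads grow with gene length and lengths were not used here, so CPM is compared between groups for the same gene and not between genes. Mitochondrial genes have near-identical nuclear copies, Nd4l and Nd4 overlap, and Nd5 and Nd6 lie next to each other on opposite strands. The library kit kept strand, but no label states how reads shared by such neighbours or copies were counted, so the values carry an uncertainty that was not measured.

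No ND gene passed the test for a difference with replication or with age in the edgeR fit across all genes (adjusted p under 0.05). The count was 0 of 6 in old replicative against old quiescent libraries, where 13.8% of all tested genes were called, and 0 of 6 in young replicative against young quiescent libraries, where 2.47% were called. It was 0 of 6 between old and young replicative libraries, where 7.16% of genes were called, 0 of 6 between old and young quiescent libraries, where 0.0268% were called, and 0 of 6 for the interaction of age and replication, where 0.0268% were called. At an unadjusted p under 0.05 there were 0, 0, 1, 2 and 0 members in these comparisons. DESeq2 called 0 members in each of the 5, where it called 21.6%, 4.08%, 15.3%, 0.394% and 1.98% of all genes in the same order. Limma-voom with 1 quality weight per group called 1 member, Nd2, between old and young quiescent libraries, where it called 3.4% of all genes. It called 0 members in the other 4 comparisons, where it called 4.28% and 4.72% of genes for replication in old and in young islets, 0.194% between old and young replicative libraries and 0.0% for the interaction. In all 4 comparisons of groups, the libraries of both groups overlapped in CPM for all 6 members, while non-overlap was found for 16.5%, 7.09%, 6.37% and 6.07% of all tested genes in the same order.

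**Figure D1:**
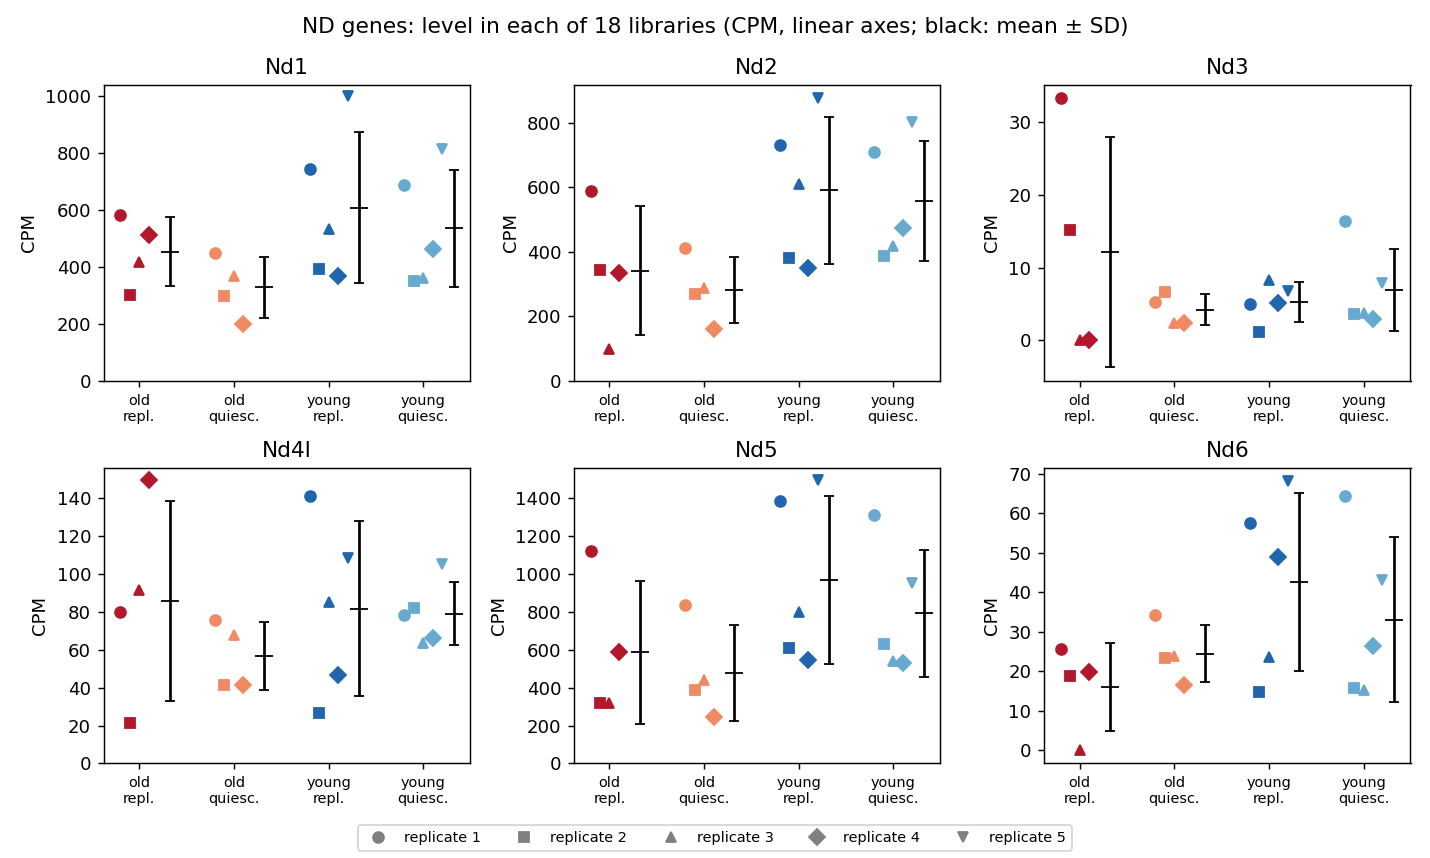
Level of each ND gene in CPM (vertical axes, linear, each with its own scale) in the 18 libraries, by group from left to right. Each symbol is a library, its shape gives the replicate number, and black bars give the mean ± SD; Nd3 lies at 0 in old replicative replicates 3 and 4, and Nd6 at 0 in replicate 3.

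Nd1 encodes the subunit at the foot of the membrane arm, beside the site where ubiquinone is bound. In old islets it stood at 581, 302, 416 and 510.2 CPM in replicative libraries (replicates 1 to 4), against 448, 296, 368 and 198 CPM in quiescent libraries of the same numbers. In young islets it stood at 743, 392, 532, 368 and 998 CPM in replicative libraries (replicates 1 to 5), against 687, 351, 359.9, 461 and 813 CPM in quiescent ones. Every old replicative library was above the quiescent library with its number, as were 4 of 5 young ones, yet the groups overlapped at both ages. Mean levels were 452 ± 121 CPM in old replicative and 328 ± 106 CPM in old quiescent cells (SD, n = 4 each), and the log2 fold change was 0.47 (SE 0.33, 95% interval -0.22 to 1.15, edgeR adjusted p = 0.389). With the replicate number as a block the log2 fold change was 0.48 (SE 0.20, edgeR unadjusted p = 0.0305, edgeR adjusted p = 0.133, range over all alternatives 0.133 to 0.707). The median of all tested genes in that block fit was -0.43. In young islets the means were 607 ± 265 CPM in replicative and 535 ± 206 CPM in quiescent cells (SD, n = 5 each), and the log2 fold change was 0.18 (95% interval -0.43 to 0.79, edgeR adjusted p = 1.00). On the deposited log2 scale the order was the same, with 11.51 ± 0.41 in old replicative and 10.89 ± 0.53 in old quiescent libraries (SD, n = 4 each), and 11.85 ± 0.61 in young replicative and 11.65 ± 0.57 in young quiescent libraries (SD, n = 5 each).

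Nd2 and Nd5 encode antiporter-like subunits of the membrane arm, the part that moves protons. Nd2 stood at 588, 345, 98.8 and 334 CPM in old replicative libraries, against 411, 269, 287 and 162 CPM in old quiescent libraries. Replicate 3 of the replicative group was the lowest of all 18 libraries for this gene. In young islets Nd2 stood at 731, 380.1, 612, 349 and 879 CPM in replicative libraries, against 709.5, 386, 419, 473 and 804 CPM in quiescent libraries, with wide overlap. The log2 fold change with replication was 0.28 in old islets (95% interval -0.54 to 1.09, edgeR adjusted p = 0.700) and 0.08 in young islets (95% interval -0.65 to 0.81, edgeR adjusted p = 1.00).

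Nd5 stood at 1118, 318, 321 and 585 CPM in old replicative libraries, against 836, 389, 441 and 243 CPM in old quiescent libraries. Replicate 1 was the highest of both old groups. Young replicative libraries held 1385, 610.2, 801, 545 and 1496 CPM, against 1309, 629, 543, 530.1 and 954 CPM in young quiescent libraries. Replicates 1 and 5 were the highest of both young groups. The log2 fold change with replication was 0.30 in old islets (95% interval -0.59 to 1.18, edgeR adjusted p = 0.706) and 0.29 in young islets (95% interval -0.50 to 1.08, edgeR adjusted p = 1.00).

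The short genes Nd4l, Nd3 and Nd6 encode small membrane subunits between the ubiquinone site and the antiporter-like subunits. Nd4l, whose message also carries Nd4, stood at 79.9, 21.1, 91.6 and 149.8 CPM in old replicative libraries, against 76.0, 41.5, 67.8 and 41.4 CPM in old quiescent libraries. The replicative group held both the lowest and the highest of these 8 values. In young islets Nd4l stood at 141, 26.9, 85.4, 46.5 and 109 CPM in replicative libraries, against 78.3, 82.1, 63.6, 66.2 and 105 CPM in quiescent ones, again with the wider range in replicative cells. Its coefficient of variation, the SD over the mean, was 0.616 in old replicative and 0.316 in old quiescent libraries, and 0.565 in young replicative and 0.210 in young quiescent libraries. The log2 fold change was 0.59 in old islets (95% interval -0.37 to 1.55, edgeR adjusted p = 0.443) and 0.05 in young islets (95% interval -0.81 to 0.90, edgeR adjusted p = 1.00). Over all tested genes whose average log2 CPM reached 4, the median coefficient was 0.573 in old replicative and 0.160 in old quiescent libraries, and 0.311 in young replicative and 0.205 in young quiescent libraries, also wider in replicative cells. In old islets Nd1 went the other way (0.267 replicative, 0.324 quiescent). In young islets Nd3 (0.509 replicative, 0.812 quiescent) and Nd6 (0.532 replicative, 0.635 quiescent) did so. The remaining members had the higher coefficient in replicative libraries.

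Nd3 was thinly covered. It had 245, 145, 0 and 0 counts in old replicative libraries, against 47, 60, 9 and 21 in old quiescent libraries. The replicative group thus held the highest level of the series, 33.2 CPM in replicate 1, and both of its libraries without a single read. A count of 0 allows up to 0.941 CPM in replicate 3 and 0.441 CPM in replicate 4, by a floor of 3 counts per library that covers counting error only. In young islets Nd3 had 33, 10, 73, 31 and 36 counts in replicative libraries, against 87, 10, 31, 35 and 55 in quiescent libraries. The log2 fold change of Nd3 in old islets was 1.52 with a 95% interval of -0.97 to 4.01 (edgeR adjusted p = 0.449), and it was -0.82 with the replicate block (edgeR adjusted p = 0.790, range over all alternatives 0.213 to 0.909), so no direction can be given. In young islets it was -0.39 (95% interval -2.58 to 1.80, edgeR adjusted p = 1.00).

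Nd6 had 188, 179, 0 and 135 counts in old replicative libraries, against 303, 209, 89 and 143 in old quiescent libraries. In CPM these were 25.5, 18.7, 0 and 19.9 in old replicative libraries, against 34.1, 23.3, 23.8 and 16.4 in old quiescent libraries. It was below the quiescent library of the same number in 3 of 4 pairs, with the zero in replicate 3. Young replicative libraries held 57.5, 14.7, 23.6, 48.9 and 68.1 CPM of Nd6, against 64.4, 15.6, 15.3, 26.3 and 43.2 CPM in young quiescent libraries. The log2 fold change was -0.60 in old islets (95% interval -2.12 to 0.93, edgeR adjusted p = 0.656) and 0.37 in young islets (95% interval -0.99 to 1.72, edgeR adjusted p = 1.00). The difference between these effects, the interaction, was -0.96 (95% interval -3.00 to 1.08, edgeR adjusted p = 0.820).

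**Figure D2:**
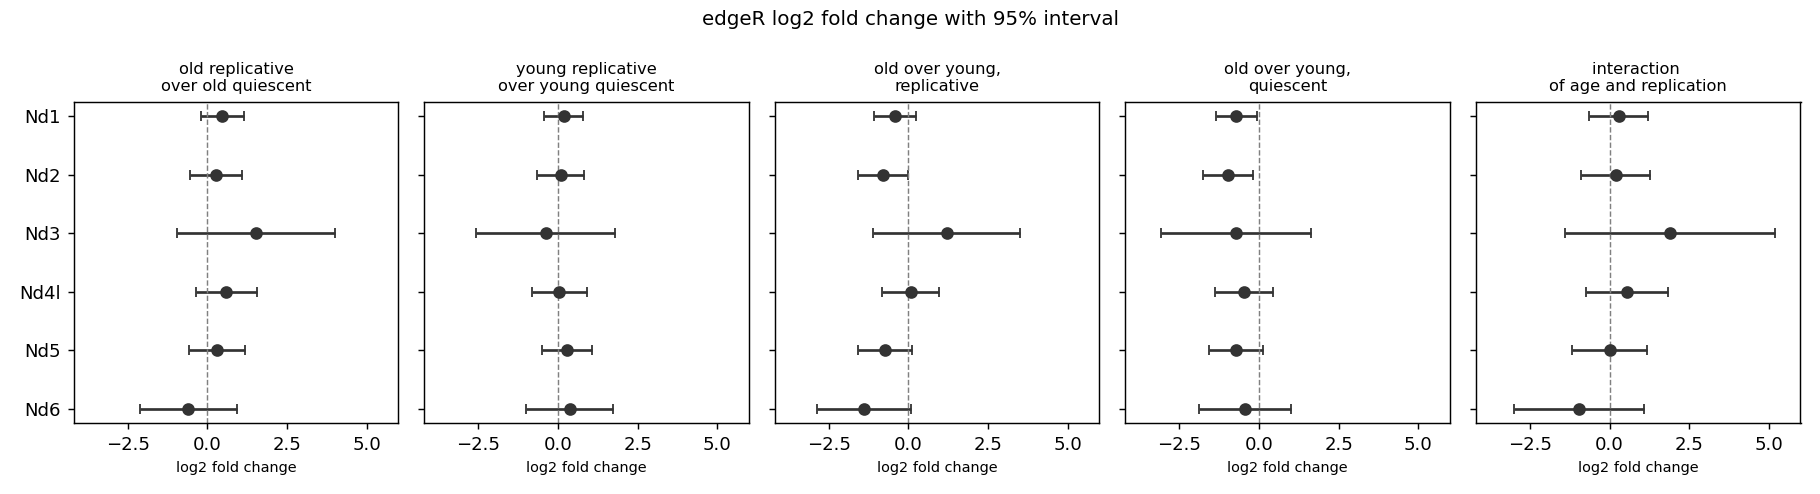
Log2 fold change of each ND gene (horizontal axes) with its 95% interval from the edgeR fit, for replicative over quiescent in old and in young islets, old over young in replicative and in quiescent cells, and the interaction, which is the old minus the young replication effect. Intervals of Nd3 and Nd6 are the widest in all 5 panels, and no member passed the adjusted threshold.

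Across the set, 5 of the 6 members had a positive value with replication in old islets and 5 of 6 in young islets. Their median log2 fold change stood at 0.38 in old and 0.13 in young islets, beside 0.01 and 0.03 over all tested genes. The signs do not count as separate results, because several members moved together over the 18 libraries. Pearson r of log2 CPM between members ran from -0.19 for Nd3 and Nd4l to 0.90 for Nd1 and Nd5. These signs were not stable for every member. In old islets Nd3 turned to -0.95 in limma-voom and -0.82 with the replicate block, where the median of all tested genes was -0.45 and -0.43. Without old replicative replicate 1, Nd2 turned to -0.13 and Nd5 to -0.24. In young islets Nd4l turned to -0.18 in limma-voom and -0.14 with the block, where that median was -0.10 and -0.08. Leaving out single libraries turned the sign of Nd1, Nd2, Nd3 and Nd4l in young islets. For the interaction, the 6 values ran from -0.96 for Nd6 to 1.91 for Nd3, with a median of 0.24 beside -0.02 over all tested genes. The value of Nd3, however, turned to -0.65 in limma-voom and -0.51 with the block, where the median of all tested genes was -0.38 and -0.36. For Nd1, the member with the smallest standard error, the 95% interval of the fold change ran from 0.860-fold to 2.22-fold in old islets and from 0.744-fold to 1.73-fold in young islets.

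The share of all counts that fell on the 6 genes was small. It was 0.276%, 0.113%, 0.0994% and 0.163% in old replicative libraries, against 0.180%, 0.0926%, 0.0961% and 0.0556% in old quiescent libraries. In young islets it was 0.362%, 0.156%, 0.227%, 0.141% and 0.344% in replicative libraries, against 0.312%, 0.148%, 0.136%, 0.129% and 0.246% in quiescent libraries. The 95% Wilson intervals of these shares were at most 0.00498 percentage points on either side, which covers counting error only.

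The replicative library held the larger share in 9 of 9 pairs with the same number, by 1.03-fold to 2.92-fold, although the ranges of the groups overlapped at both ages. The mean share was 0.163% ± 0.0803 in old replicative and 0.106% ± 0.0527 in old quiescent libraries (SD, n = 4 each), and 0.246% ± 0.103 in young replicative and 0.194% ± 0.0810 in young quiescent libraries (SD, n = 5 each). This count of pairs depended on the denominator. In TMM-scaled CPM the summed level was higher in the replicative library in 5 of 9 pairs, and as a share of counts without the 10 most abundant other genes in 6 of 9. The TMM factor, which rescales the library size, was itself higher in the replicative library of all 9 pairs. Those 10 genes took 10.3% to 20.6% of counts in old replicative and 23.6% to 27.7% in old quiescent libraries, and 19.8% to 22.4% in young replicative and 25.7% to 30.1% in young quiescent libraries. In such bulk libraries, fewer cells of a type and less RNA per cell cannot be told apart.

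**Figure D3:**
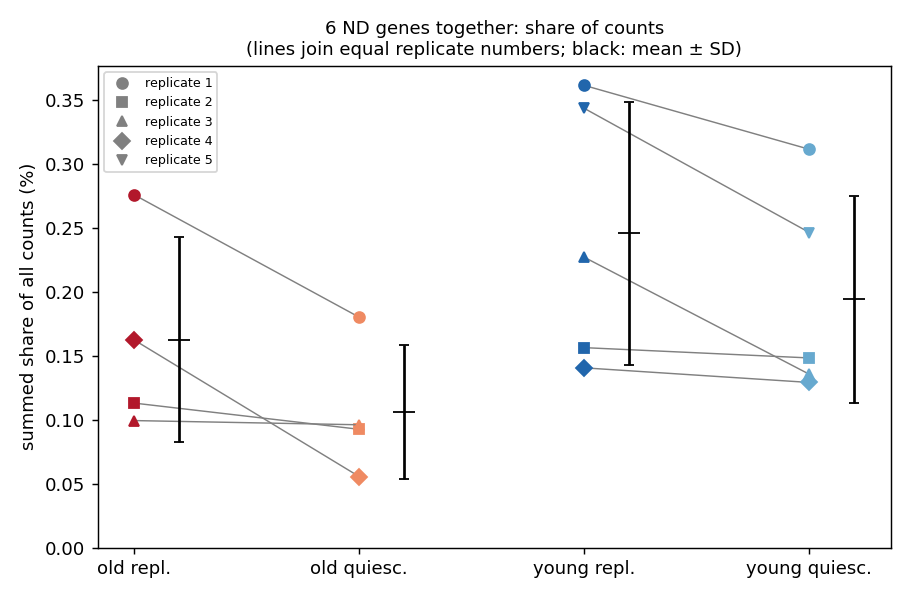
Summed share of all counts on the 6 ND genes, in percent (vertical axis from 0), by group; each symbol is a library, grey lines join replicative and quiescent libraries with the same replicate number, and black bars give the mean ± SD. All 9 lines slope down from replicative to quiescent, and replicates 1 and 5 of young islets are the highest of both young groups.

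Some replicate numbers stood high in both states and others did not. Summed over the 6 genes, young replicates 1 and 5 stood at 3063 and 3556 CPM in replicative libraries, where the other 3 held 1363 to 2062 CPM. In young quiescent libraries replicates 1 and 5 stood at 2864 and 2727 CPM, where the other 3 held 1404 to 1560 CPM. In old islets replicate 1 was the highest of both groups, at 2426 CPM in the replicative and 1809.9 CPM in the quiescent library. Old replicate 4 was the second highest of its group in the replicative library, at 1599 CPM, and the lowest of all 18 in the quiescent one, at 663 CPM.

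Mean levels of Nd1, Nd2, Nd5 and Nd6 were lower in old than in young islets in both states, and none of these differences passed the edgeR test. In quiescent cells all 6 members had a negative value for old against young, with a median log2 difference of -0.71 beside -0.04 over all tested genes. Because several members moved together over the libraries, these signs are not separate results. Nd2 averaged 282 ± 102 CPM over the old libraries (SD, n = 4) and 558 ± 187 CPM over the young ones (SD, n = 5), and its log2 difference was -0.98 (SE 0.38, 95% interval -1.77 to -0.20, edgeR adjusted p = 0.809). It passed in limma-voom with 1 quality weight per group (log2 difference -1.01, adjusted p = 0.0159), and its adjusted p ranged from 0.0159 to 1.00 over its alternatives. Nd1 averaged 328 ± 106 CPM over the old libraries (SD, n = 4) and 535 ± 206 CPM over the young ones (SD, n = 5), and its log2 difference was -0.71 (edgeR adjusted p = 0.954). Nd5 averaged 477 ± 253 CPM over the old libraries (SD, n = 4) and 793 ± 335 CPM over the young ones (SD, n = 5), and its log2 difference was -0.73 (edgeR adjusted p = 1.00). Nd4l, Nd3 and Nd6 had log2 differences of -0.48, -0.71 and -0.44.

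In replicative cells 4 of the 6 members had a negative value for old against young, with a median log2 difference of -0.57 beside -0.05 over all tested genes. Nd2 averaged 342 ± 199.8 CPM over the old libraries (SD, n = 4) and 590.2 ± 227 CPM over the young ones (SD, n = 5), and its log2 difference was -0.79 (edgeR adjusted p = 0.220). Nd5 averaged 586 ± 376 CPM over the old libraries (SD, n = 4) and 967 ± 444 CPM over the young ones (SD, n = 5), and its log2 difference was -0.72 (edgeR adjusted p = 0.311). Nd6 averaged 16.01 ± 11.1 CPM over the old libraries (SD, n = 4) and 42.6 ± 22.6 CPM over the young ones (SD, n = 5), and its log2 difference was -1.40 (edgeR adjusted p = 0.260). Nd1 had a log2 difference of -0.42, Nd3 of 1.20 and Nd4l of 0.07. Both positive values turned in limma-voom, to -1.04 for Nd3 and -0.0762 for Nd4l, so that all 6 were negative there. The median of all tested genes was itself -0.43 in limma-voom, with Nd4l and Nd1 (-0.35) above it and the other members below it. Without old replicative replicate 1 the value of Nd3 was -0.0376. For Nd1, Nd2 and Nd5 the group means therefore fell in the order young replicative, young quiescent, old replicative and old quiescent, and none of the tested steps between groups passed the threshold.

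Ratios between ND genes of the same library do not depend on its scaling, and are compared here for the same pair of genes across libraries. Counts of Nd2 were 78.1% to 116% of those of Nd1 in the 16 libraries other than old replicative replicates 3 and 4, and 23.8% and 65.5% in these. In the same 16 libraries Nd5 counts were 105% to 193% of Nd1 counts, and in old replicative replicates 3 and 4 they were 77.2% and 115%. Nd4l counts were 6.85% to 23.4% of Nd1 counts in the 16 libraries, and 22.0% and 29.4% in replicates 3 and 4. Relative to Nd1, old replicative replicate 3 therefore had the lowest Nd2 and Nd5 of the series, and replicate 4 the highest Nd4l. Nd1 itself made up 44.8% of the summed counts of the 6 genes in replicate 3 and 31.9% in replicate 4, against 23.9% to 30.9% in the 16 libraries. As a share of that sum, Nd2 in replicate 3 was still the lowest, at 10.7%. Nd5 in replicate 3, at 34.6%, lay within the 31.2% to 46.2% of the 16 libraries. Nd4l was highest in replicate 3, at 9.87%, beside 9.36% in replicate 4.

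Reads of Nd3 made up 0.282% to 5.72% of Nd1 counts in the 16 libraries. The zeros of Nd3 in old replicative replicates 3 and 4 allow at most 0.226% and 0.0865% of Nd1 counts, below the lowest of the other 16, while replicates 1 and 2 of that group held the highest values at 5.72% and 5.01%. As a share of the summed counts of the 6 genes, those zeros allow at most 0.101% and 0.0276%. The lowest of the other 16 held 0.0776%, so replicate 3 cannot be placed below it on that measure. For Nd6 the 16 libraries held 3.75% to 13.3% of Nd1 counts, and replicate 4 of old replicative cells 3.89%. Its zero in replicate 3 allows at most 0.226%. These libraries were set apart after their values were seen, so the ratios are given as a description.

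Among the 15 pairs of the 6 genes, the ratio of counts did not overlap between old and young quiescent libraries in 1 pair, Nd2 and Nd1. It did not overlap in 2 of 15 pairs between old replicative and old quiescent libraries, both with Nd6, and in 0 of 15 in each of the other two comparisons of groups. Nd2 counts were 91.7%, 90.8%, 78.1% and 81.6% of Nd1 counts in old quiescent libraries, against 103%, 109.9%, 116%, 102% and 98.8% in young quiescent libraries, with no overlap. In replicative cells the values were 101%, 114%, 23.8% and 65.5% in old libraries, against 98.4%, 96.8%, 115%, 94.9% and 88.0% in young libraries, with overlap. This pair was picked out after its values were seen, and no test was made of it. The same count over pairs of other genes was not made.

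**Figure D4:**
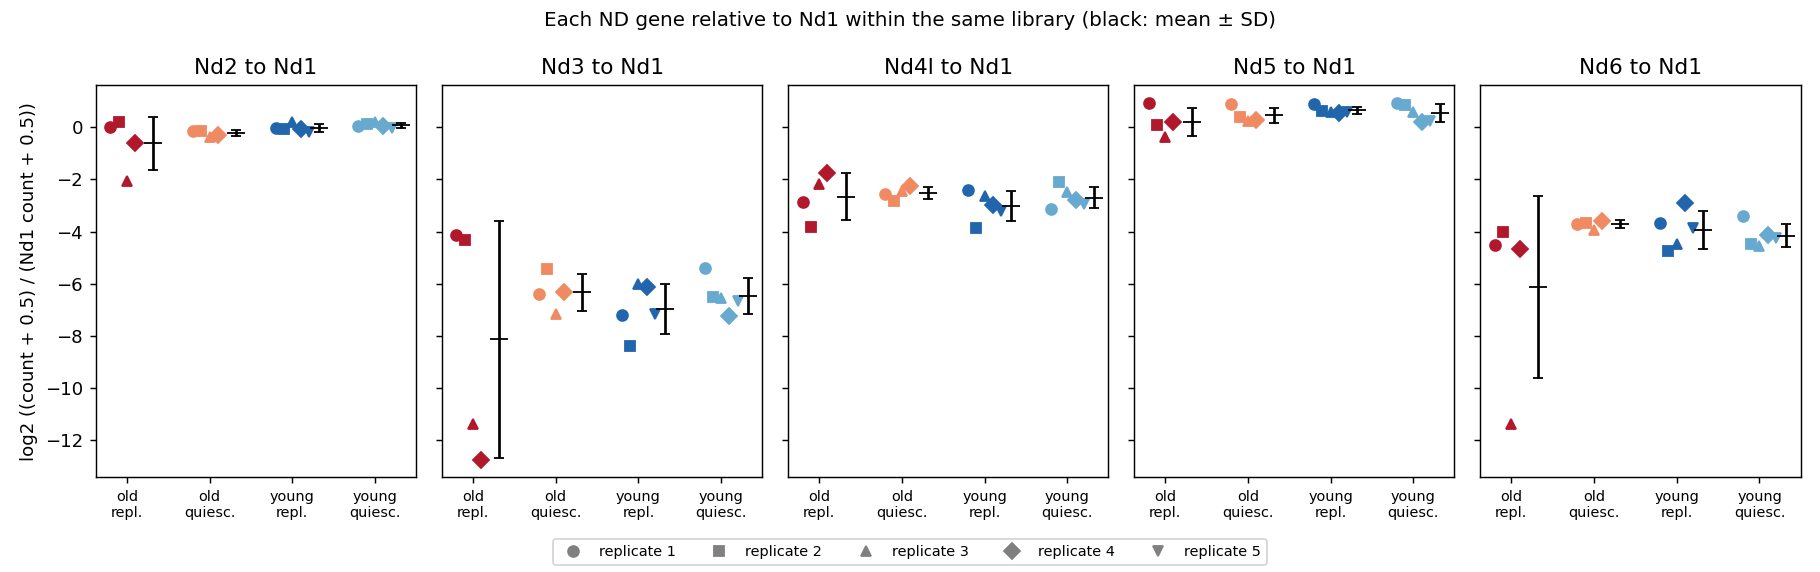
Each of 5 ND genes relative to Nd1 in the same library, as log2 of the ratio of counts after 0.5 counts were added to both (vertical axis), by group; symbols are libraries, shapes give the replicate number and black bars the mean ± SD. The points far below the rest are libraries with 0 counts of Nd3 or Nd6, whose position is set by the 0.5 counts added.

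Whether the light-strand gene Nd6 keeps its proportion to the heavy-strand gene Nd1 was tested in the 4 comparisons of groups. The log2 ratio of Nd6 to Nd1 was -4.51, -4.01, -11.37 and -4.68 in old replicative libraries, against -3.71, -3.67, -3.95 and -3.59 in old quiescent libraries. All 4 replicative libraries lay below all 4 quiescent ones. The difference of means was -2.41 (exact permutation test, two-sided, p = 0.0286, the smallest this test can give with 4 libraries a group), and it did not pass adjustment over the 4 comparisons (exact permutation test, adjusted p = 0.114). This test takes the libraries of the same replicate number as unpaired. Without old replicative replicate 3, whose ratio rests on a count of 0, the difference was -0.67 (exact permutation p = 0.0286, again the smallest possible, adjusted p = 0.114). Leaving out any 1 old quiescent library instead gave differences of -2.49 to -2.37 (exact permutation p = 0.257 to 0.286, adjusted p = 0.343 to 0.381). In these runs the replicative libraries still lay below all quiescent libraries that were kept. The test compares means, so its p also depends on the size of the -11.37, which the 0.5 counts added set. With Nd5 in place of Nd1, chosen after seeing the data, the difference was -2.16 (exact permutation p = 0.0857, adjusted p = 0.270). With all 4 pairs of the same replicate number, replicate 3 and its 0 included, the exact sign-flip p was 0.125, the smallest possible with 4 pairs. In young islets the ratio averaged -3.94 ± 0.72 in replicative and -4.16 ± 0.45 in quiescent libraries (SD, n = 5 each), a difference of 0.22 (exact permutation p = 0.579, adjusted p = 0.579). Old and young replicative libraries differed by -2.20 (exact permutation p = 0.0794, adjusted p = 0.159) and by -0.46 without old replicative replicate 3. For old and young quiescent libraries the difference was 0.43 (exact permutation p = 0.127, adjusted p = 0.169).

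Among 7791 other tested genes averaging at least 4 on the log2 CPM scale, those whose log2 CPM followed the summed ND level most closely over the 18 libraries were ENSRNOG00000031766, with a Pearson r of 0.96, and ENSRNOG00000031979, with a Pearson r of 0.95. Centred within each group, their r was 0.95 for both, so the likeness was as close within groups as across them. The files do not pair these IDs with names. The values describe a ranking over libraries that share batches and scaling, and carry no p.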

How the data were processed

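RNA was sequenced in 18 libraries that, per the labels' protocols, keep the strand of the RNA (forward). The deposited count table lists 27654 Ensembl gene IDs with unnormalized counts, whole numbers per the file headers and values. The submitters' processing notes name STAR, DESeq2 and rn6 without saying what each was used for, and name no counting program or annotation release. The authors also deposited a table of log2 values. Dividing the counts by median-of-ratios size factors, adding 1 and taking log2 gave the same values to within 5.15e-14. All per-sample columns were used.

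The 7 gene IDs and their symbols came with the definition of the gene set. Nd4 was not analysed here. The reference table at hand has 0 genes with an Ensembl ID, so other IDs were not named, and the lists of nuclear complex I subunits, assembly factors, mitochondrial RNA genes and cell type markers were not run. The labelled cell type was therefore not checked by markers. No sequence or coordinate of a mitochondrial gene was used here. Members, lists and tests were chosen with earlier results of these data known.

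Counts were fitted with edgeR 4.0.16 in R 4.3.3 on all genes and all 18 libraries, with 4 group means, TMM scaling, filterByExpr defaults (minimum count 10, minimum total 15, leaving 14920 genes), robust quasi-likelihood F tests and Benjamini-Hochberg adjustment over all genes tested, at a threshold of 0.05. CPM values use TMM-scaled library sizes. Standard errors are the log2 fold change over the square root of F, and 95% intervals use the fitted degrees of freedom. The Nd6 to Nd1 log2 ratio, with 0.5 counts added to both genes because 1 library had 0 Nd6 counts, was compared by exact permutation tests, two-sided, adjusted over 4 comparisons. The offset was chosen after seeing that 0. All 6 members are named in every comparison. The edgeR code was tested on simulated data, and the permutation code on a fixed set of numbers with a known p.

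Alternatives were RLE and upper-quartile factors, library sizes without the members, no filter, DESeq2 1.42.0, limma-voom (limma 3.58.1) with 1 quality weight per group, a fit of only the 2 groups compared, the replicate number as a block, and leaving out each library in turn. The numbers pair the libraries: over 7796 genes, the deviations from the group means of libraries with the same number correlated with an r of 0.11 to 0.49 in all 9 pairs, and every replicative library correlated best with its own number. The series text describes batches that each gave a replicating and a quiescent sample, which is where this pairing would come from, although the labels do not tie the numbers to batches. The fit with all groups and the exact permutation tests count both libraries of a pair as independent. The fit also uses a spread averaged over groups whose spreads differ.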

Additional observations from a re-analysis of the deposited data

Results flagged for a closer look

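In 32 groups of values examined for a library far from the others (6 genes, the summed share and the Nd6 to Nd1 ratio in each of 4 groups), 1 library stood out, and chance alone sets apart about 1 in 20 such groups. It was old replicative replicate 3 for the log2 ratio of Nd6 to Nd1, at -11.37, where the other 3 libraries of its group lay between -4.68 and -4.01. The value rests on 0 Nd6 counts beside 1326 Nd1 counts in the shallowest library of that group, with 2975086 counts in all. The part of depth in this result was not tested.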

How the results depend on the processing

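The number of ND genes called stayed at 0 of 6 in every comparison and alternative, leaving out single libraries included (lowest 0, highest 0), except that limma-voom with 1 quality weight per group called 1 member, Nd2, between old and young quiescent libraries. The replicate block changed no call. Of 762 log2 fold changes of members under alternatives, 40 had the opposite sign, 12 of them not from leaving out a library, and the cause was not tested. In old islets Nd3 turned to -0.95 in limma-voom and -0.82 with the replicate block, and in young islets Nd4l turned to -0.18 and -0.14. Between old and young replicative libraries Nd3 turned to -1.04 in limma-voom, and Nd4l to -0.0762 in limma-voom and -0.0759 with upper-quartile factors. The interaction of Nd3 turned to -0.65 in limma-voom and -0.51 with the block, and that of Nd5 to -0.0175 with upper-quartile factors, -0.0013 in limma-voom and -0.0271 with the block.

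Leaving out single libraries gave ranges that crossed 0 for replication in old islets in Nd2 (-0.13 to 0.55) and Nd5 (-0.24 to 0.70), and in young islets in Nd1 (-0.0723 to 0.39), Nd2 (-0.11 to 0.25), Nd3 (-0.64 to 0.22) and Nd4l (-0.25 to 0.27). The same held between replicative libraries for Nd3 (-0.0376 to 1.59) and Nd4l (-0.38 to 0.38), and for the interaction in Nd2 (-0.19 to 0.49) and Nd5 (-0.50 to 0.42). For the Nd6 to Nd1 ratio the ranges were -3.12 to -0.67 in old islets, -0.0365 to 0.42 in young islets, -2.91 to -0.46 between replicative and 0.33 to 0.62 between quiescent libraries. With the replicate block the exact sign-flip p was 0.125 in old and 0.562 in young islets. The ratio of Nd6 to Nd4 was not run, and Nd5 in place of Nd1, chosen after seeing the data, gave -2.16, 0.12, -1.76 and 0.53 in the same order.

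Calls over all genes moved more. In old islets 2053 became 3183 in DESeq2, 639 in limma-voom and 540 in the 2-group fit, and in young islets 368 became 600, 704 and 786. Between replicative libraries 1069 became 2251, 29 and 62, and between quiescent libraries 4 became 58, 507 and 258, or 8 without a filter. The interaction count of 4 became 291, 0 in limma-voom, 1 without a filter and 11 with the block. Without single libraries these counts ran from 1134 to 2916, 293 to 552, 644 to 2211, 0 to 14 and 0 to 231. For replication in old islets the median of all tested genes was 0.01 in the main fit, 0.14 with RLE and -0.10 with upper-quartile factors. It was -0.45 in limma-voom and -0.43 with the replicate block, the settings in which Nd3 turned. In the same settings it was -0.10 and -0.08 in young islets, and -0.38 and -0.36 for the interaction. Between old and young replicative libraries it was -0.43 in limma-voom. Nd3 had the lowest mean count of the members in every group, with 0 to 245 counts per library. It had 0 counts in old replicative replicates 3 and 4, which held 2975086 and 6688155 counts in all. Young quiescent replicate 2, with 2723660 counts in all, had 10. The part of depth in these counts was not tested.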
